A study of Homo sapiens with 18 samples.

Results

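The solute carriers are the membrane proteins with gene symbols of the form SLC, a family number, a letter and a member number. Members were the protein-coding genes of this symbol pattern in the deposited table, and they were 205 of its 12755 gene IDs. They came from 48 of the 50 families that the pattern gives in GENCODE release 29. That release holds 367 genes of the pattern, and 162 of them had no line in the table and are not analysed here. The rule uses symbols and biotypes and no measured value, but the gene family was chosen with earlier results of these data known.

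The samples were 18 libraries of polyadenylated RNA from MDA-MB-453, an established luminal breast cancer cell line. Cells received DMSO, the solvent, or JQ1-VHL for 3 h, with 4-thiouridine at 0.1 mM in the last 60 min. JQ1-VHL joins the BET bromodomain ligand JQ1 to a ligand of the VHL ubiquitin ligase, and such compounds lead to degradation of BET proteins. The sample titles name the compound dBET. Each treatment was measured in total, nuclear and cytoplasmic RNA with 3 replicates, separated with digitonin at 1 mg/ml, so that the 6 groups were DMSO and JQ1-VHL in each fraction. All groups share the cell line and the 4-thiouridine labelling, and the labels do not say that the replicates were separate cultures. Iodoacetamide makes incorporated 4-thiouridine read as a T-to-C change, so a T-to-C read marks RNA made during the labelling.

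As background, solute carriers move ions, amino acids, sugars, nucleotides, vitamins and metals across the plasma membrane and the membranes of organelles. Most use a gradient of sodium, protons or another solute, or only the gradient of their own substrate, whereas ion pumps and ABC transporters use ATP. Families SLC1, SLC3, SLC6, SLC7, SLC36, SLC38 and SLC43 carry mainly amino acids and neurotransmitters, and the heavy chain encoded by SLC3A2 pairs with light chains of family SLC7. Family SLC25 holds the carriers of the inner mitochondrial membrane, among them the ADP/ATP carriers, with a few members in other membranes such as the peroxisomal carrier SLC25A17. Cancer cells are known to rely on glutamine, leucine and cystine uptake through several of these proteins.

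Values were T-to-C read counts that the authors had divided by a factor for each library, taken from ERCC spike-in RNA per the table's name. The libraries held 1.58 to 6.77 M reads, with M standing for 1e06, and the shallowest was JQ1-VHL nuclear replicate 3. ERCC RNA was added by RNA mass, so a value on the ERCC scale is set per mass of RNA recovered and says nothing per cell. A second scale, called rescaled below, divides each library by 1 further factor so that the typical gene is level between libraries and fractions, and a change on it is relative to the typical gene. The shift between both scales was large in nuclear RNA, where the median log2 change of all 10191 tested genes was -1.82 on the ERCC scale and -0.11 after rescaling. Fewer cells of a type and less RNA per cell cannot be told apart in these bulk samples. Of 12 luminal markers, 12 were in the table and were tested, against 1 of 6 fibroblast, 1 of 5 blood, 0 of 3 endothelial and 1 of 3 basal markers.

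Solute carriers held a larger share of the reads in nuclear than in cytoplasmic libraries. They held 1.60%, 1.77% and 1.98% of the reads in the DMSO nuclear libraries and 1.31%, 1.28% and 1.62% in those with JQ1-VHL. The shares were 1.12%, 1.22% and 1.23% in DMSO total RNA and 0.909%, 0.960% and 0.948% with JQ1-VHL. In total RNA each JQ1-VHL library was below each DMSO library, whereas in nuclear RNA JQ1-VHL replicate 3 was above DMSO replicate 1. The labels give each replicate number its own batch number, and within the same-numbered nuclear pairs the ratios of JQ1-VHL to DMSO were 0.815, 0.720 and 0.818, all below 1. In cytoplasmic RNA the shares were 0.799%, 0.642% and 0.733% with DMSO and 0.706%, 0.678% and 0.610% with JQ1-VHL, and these groups overlapped. With 3 libraries against 3, an exact permutation test cannot go below p = 0.1, so these shares are given without one. A share of reads also depends on the most abundant genes of a library, and it was not computed for the typical gene. The falls and the difference between fractions are therefore not read as traits of solute carriers. After rescaling, the median change of the members in nuclear and total RNA lay near that of all genes, as given below.

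**Figure D1:**
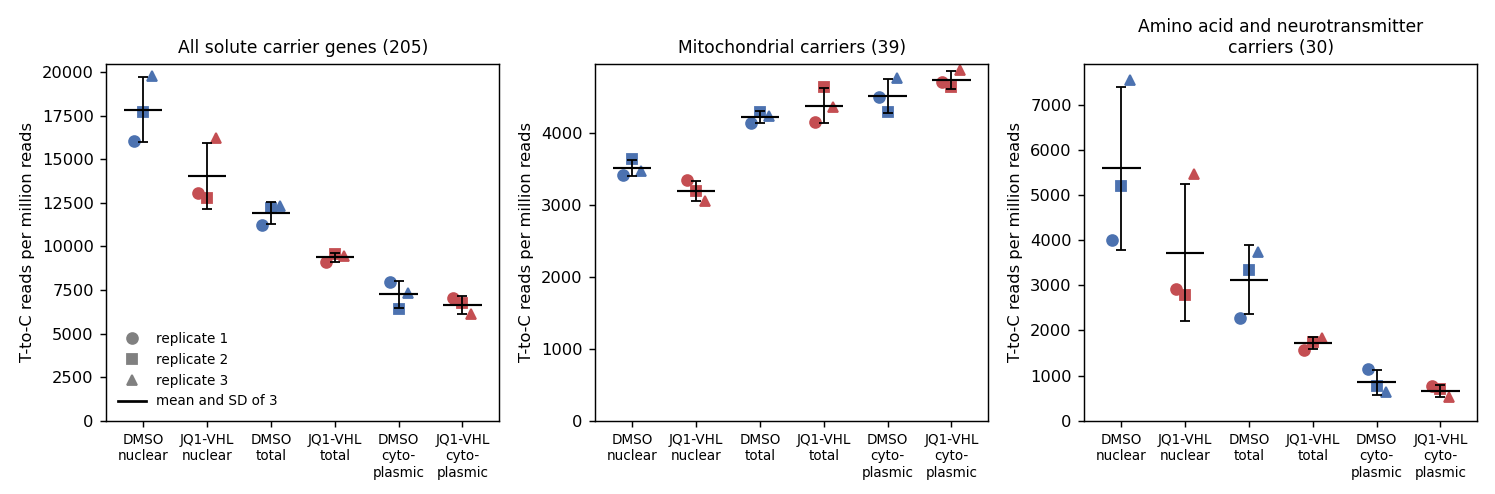
T-to-C reads per M library reads for all 205 solute carriers, for the 39 mitochondrial carriers and for the 30 amino acid and neurotransmitter carriers, by fraction and treatment. Points are libraries, the marker shape is the replicate number, and bars are the mean and SD of 3 libraries. The amino acid carriers in DMSO nuclear RNA run from 4005 to 7560 reads per M.

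The members divided by compartment in DMSO cells. Mitochondrial carriers held 19.7% ± 2.00 (SD, n = 3) of the solute carrier reads in nuclear RNA, 35.4% ± 1.30 in total RNA and 62.6% ± 5.55 in cytoplasmic RNA. SLC25A5, the ADP/ATP carrier ANT2 of proliferating cells, made up 3.20% of the solute carrier reads in the nucleus and 29.6% in the cytoplasm. In the nucleus the leading genes were SLC38A2 at 5.91%, SLC3A2 at 4.58%, SLC7A5 at 4.12% and SLC29A1 at 4.06% on average. The share of SLC7A5 ran from 1.77% to 7.95%, with replicate 3 highest, and that of SLC29A1 from 3.48% to 4.41%. The 4 genes encode an amino acid carrier, a heavy chain, its leucine-carrying light chain and a nucleoside carrier. Per kilobase of merged exons, SLC25A5 also led in DMSO total RNA with 5382 ± 268 reads (SD, n = 3), followed by SLC25A1, the citrate carrier, with 479 ± 89.6. This level is rough, since a gene's numbered intervals were summed and a read may be counted in several.

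After rescaling, 80 of the 168 tested members were higher in the nucleus than in the cytoplasm and 17 were lower (limma with Benjamini-Hochberg adjustment over all tested genes, adjusted p under 0.05). Among all tested genes 29.8% were higher and 25.9% lower. The median log2 nuclear to cytoplasmic ratio was 1.26 for the members and 0.33 for all genes. The ERCC scale gave 42 higher and 1 lower, against 14.7% and 5.92% of all genes. Without DMSO nuclear replicate 1 the ERCC scale called 15 members in all.

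The 36 tested mitochondrial carriers had 8 higher and 15 lower in the nucleus, with a median of -0.59. The other 132 tested members had 72 higher and 2 lower, with a median of 1.45. The 2 were SLC6A8, the creatine carrier, and SLC40A1, the iron exporter ferroportin, named because the count was small. For SLC25A5 the rescaled values in the DMSO nucleus were 933, 1510.3 and 1291 and in the cytoplasm 10652, 11575 and 15523. The cytoplasmic values were all higher, and the log2 ratio of nucleus to cytoplasm was -3.35 ± 0.22 (SE, limma adjusted p = 4.27e-10). SLC25A23, an ATP-Mg/phosphate carrier, had a log2 ratio of -2.40, the phosphate carrier SLC25A3 -2.19, SLC25A39, which brings glutathione into mitochondria, -2.12, and SLC25A1 -1.93, with limma adjusted p-values of 1.38e-07, 4.58e-08, 5.8e-06 and 1.2e-06. All 5 log2 ratios were also below 0 on the ERCC scale, where they were -3.02, -2.08, -1.87, -1.80 and -1.61. That scale shifts most genes by nearly the same amount, so these signs add no separate support. There limma called 5 mitochondrial carriers higher and 1 lower of 36, with a median of -0.27. Of the other 132 members it called 37 higher and 0 lower, with a median of 1.77. The call of SLC6A8 was lost under some alternatives, with limma or edgeR adjusted p-values of 0.104 in edgeR, 0.607 on the highest interval, 0.0608 without DMSO cytoplasmic replicate 1 and 0.0822 without DMSO nuclear replicate 1.

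At the other end stood SLC4A11, a boron-transporter homologue of the corneal endothelium, with rescaled values of 120.1, 115 and 79.4 in the DMSO nucleus and 7.82, 0 and 9.63 in the cytoplasm. The groups did not overlap, and the log2 ratio was 4.52 ± 0.89 (SE, limma adjusted p = 0.000300). SLC11A2, the iron and divalent metal carrier DMT1, had 96.4, 114 and 101 against 10.7, 9.11 and 0 and a log2 ratio of 4.41 ± 0.81 (SE, limma adjusted p = 0.000148). The exchanger SLC24A5, known for its role in pigmentation, and the dicarboxylate carrier SLC13A3 had no read in any DMSO cytoplasmic library. Against a floor of 3 reads in each library, worth 3.76 rescaled units, their nuclear levels were at least 6.21-fold and at least 4.25-fold higher. SLC27A1, a fatty acid carrier, had 242 nuclear and 3 cytoplasmic DMSO reads, a ratio of read shares of 79.8 with an exact 95% interval of 27 to 389. Such intervals and floors cover counting error only.

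**Figure D2:**
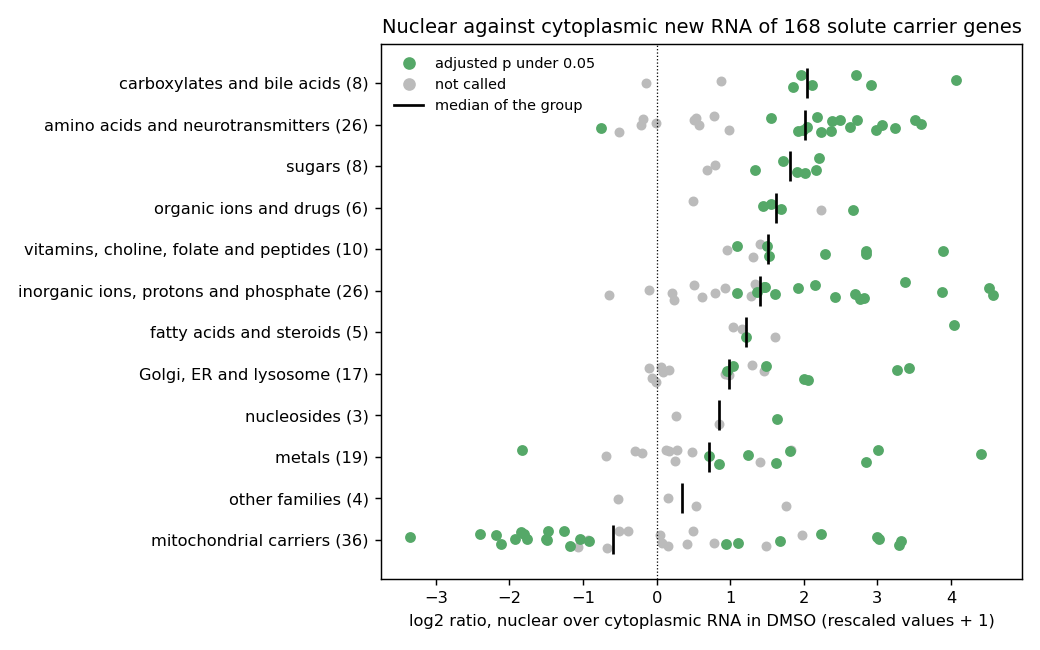
Log2 ratio of nuclear to cytoplasmic rescaled values (+ 1) in DMSO for the 168 tested solute carriers, grouped by substrate role. Each point is a gene, green points passed limma at an adjusted p of 0.05, and black bars are medians, which is -0.59 for the mitochondrial carriers.

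In nuclear RNA with JQ1-VHL, members went down with the other genes on the ERCC scale and split in both directions after rescaling. The ERCC scale called 0 of the 168 members higher and 54 lower, against 0.177% and 33.7% of all tested genes (limma). The median log2 change was -1.74 for the members and -1.82 for all genes. After rescaling, 17 members were higher and 21 lower, where 15.2% and 14.4% of all genes were, and the medians were -0.06 and -0.11. Groups did not overlap for 38 members above and 50 below after rescaling, against 26.1% and 30.9% of all genes. These shares lay near the background. The 0 higher calls stood beside 0 members higher at an unadjusted p under 0.05, 0 in edgeR and 0 in DESeq2. Leaving out JQ1-VHL nuclear replicate 3 left 3 ERCC calls and 18 rescaled calls in all, and leaving out DMSO nuclear replicate 1 left 5 and 23. The rescaled calls were 21 and 22 without DMSO nuclear replicates 2 and 3.

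In total RNA the ERCC scale called 3 members lower (SLC48A1, SLC35B2 and SLC1A7) and 0 higher, against 2.79% and 0.245% of all genes in limma. No member was higher at an unadjusted p under 0.05, and edgeR and DESeq2 also called 0 higher. With the replicate number as a block 7 were lower. Without DMSO replicate 1, or without JQ1-VHL replicate 3, the ERCC count was 0. After rescaling, 16 members were higher and 27 lower, against 15.4% and 16.3% of all genes, with a median of -0.07 for the members and -0.09 for all. Leaving out DMSO total replicate 2 or JQ1-VHL total replicate 3 left 28 and 24 rescaled calls.

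In cytoplasmic RNA the lower calls outnumbered the higher ones, as they did among all tested genes. The lower share of the members after rescaling was not above that of all genes. After rescaling 5 members were higher and 27 lower, against 8.82% and 18.2% of all genes, and the median was -0.42 for the members and -0.11 for all genes. The ERCC scale called 6 lower and 0 higher, against 3.67% and 0.226%, with medians of -0.33 and -0.02. The direction of the latter rested on single libraries, since the median of all genes was -0.93 without DMSO cytoplasmic replicate 2 and 0.27, 0.55 and 0.31 without DMSO cytoplasmic replicates 1 and 3 and JQ1-VHL cytoplasmic replicate 3. At an unadjusted p under 0.05 it had 1 member higher, and edgeR and DESeq2 called 0 and 1 higher. The 6 were SLC29A3, SLC48A1, SLC39A10, SLC25A30, SLC10A3 and SLC25A25. The ERCC count was 0 without DMSO cytoplasmic replicate 1 or 3 or JQ1-VHL cytoplasmic replicate 3, and 29 without DMSO cytoplasmic replicate 2. Counted on each gene's highest interval in place of the sum, the rescaled calls were 11 and the ERCC calls 1.

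Called genes recurred between fractions after rescaling. Of the 21 members lower in nuclear RNA, 16 were also lower in total RNA, which is 76.2% of the nuclear and 59.3% of the total list. Total RNA includes the nuclear RNA. The shared calls were not counted over all tested genes, so the recurrence is not read as a trait of solute carriers. Lower in all 3 fractions were 12: SLC1A4, SLC1A5, SLC2A10, SLC3A2, SLC7A1, SLC25A4, SLC25A15, SLC25A24, SLC29A3, SLC35F2, SLC38A2 and SLC48A1. Of these, SLC1A4, SLC2A10 and SLC7A1 were named after their values were seen. Higher in all 3 were SLC25A3, SLC25A5 and SLC6A8, although in nuclear RNA their ERCC estimates were below 0, at -0.62, -0.50 and -0.76. The same held for 14 of the 17 members higher in rescaled nuclear RNA, whereas all 16 and 5 higher calls in total and cytoplasmic RNA had ERCC estimates above 0. Every rescaled lower call, 21 nuclear, 27 total and 27 cytoplasmic, had an ERCC estimate below 0. Both scales differ only by a factor per library, which shifts the estimates of a fraction by nearly the same amount for most genes. These signs follow largely from that shift and the size of the changes, and add no separate support. No member was called in opposite directions in different fractions.

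**Figure D3:**
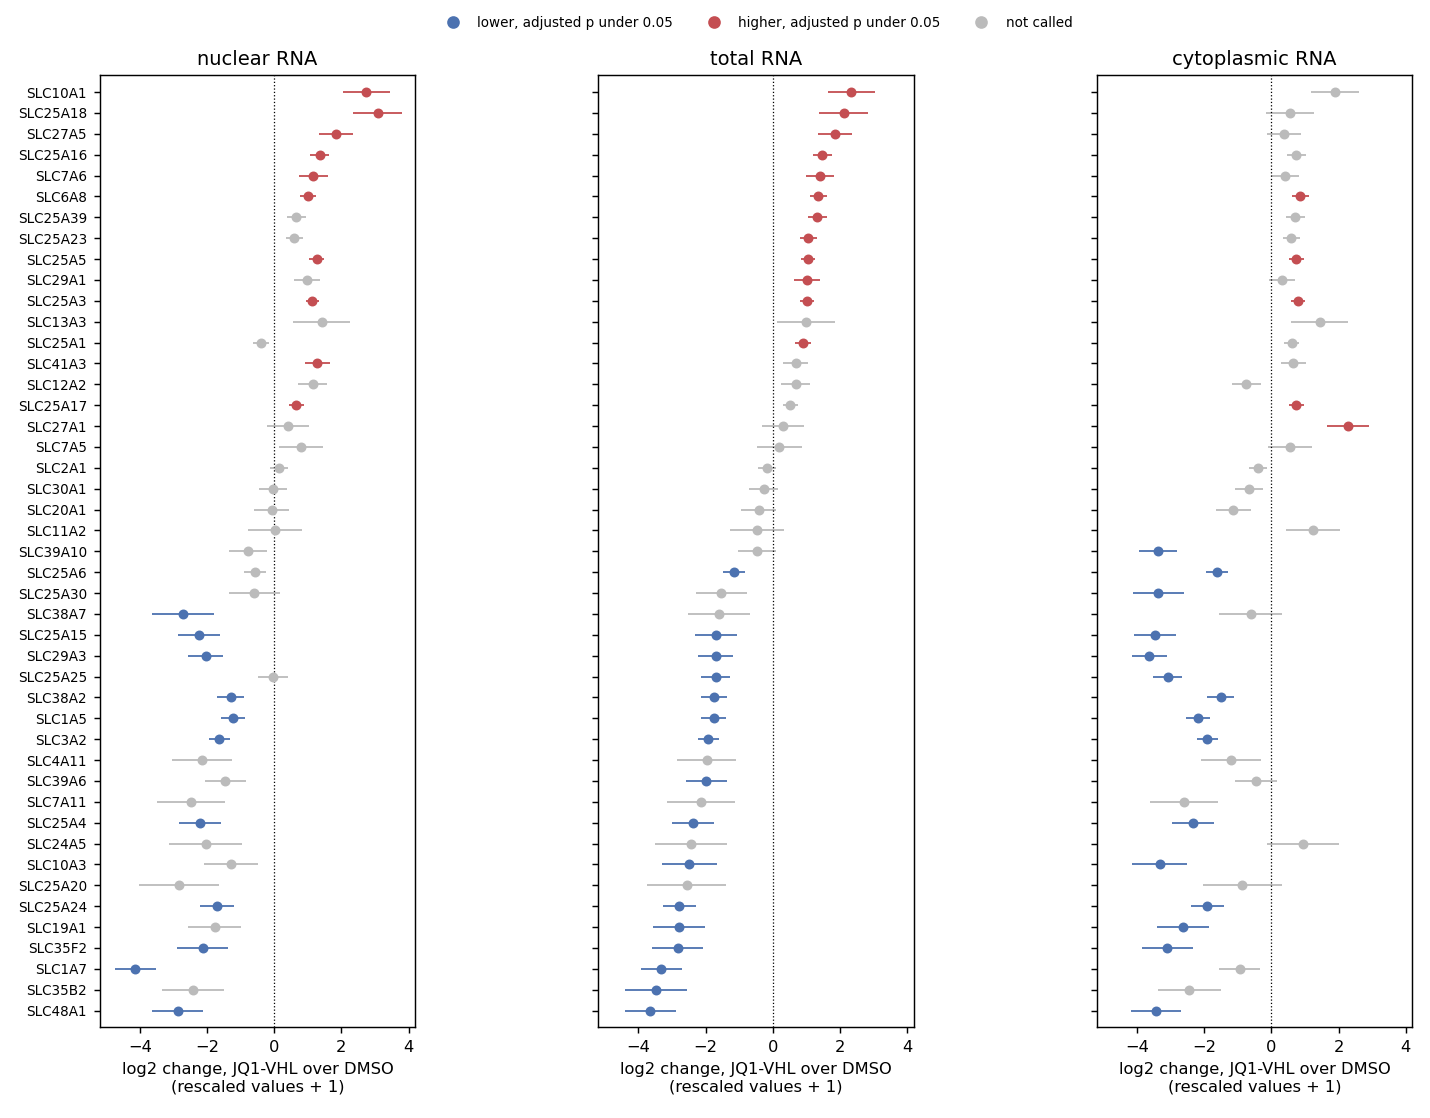
Log2 change with JQ1-VHL after rescaling, with its SE, for 45 of the tested genes chosen by the naming rule, in nuclear, total and cytoplasmic RNA (n = 3 against 3). Genes are ordered by the change in total RNA; blue is lower and red is higher at a limma adjusted p of 0.05, and grey is not called. SLC1A7 has the lowest nuclear value, -4.14.

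Amino acid carriers had 7 lower and 4 higher calls among 26 tested members in rescaled nuclear RNA, 6 lower and 4 higher in total RNA, and 6 lower and 1 higher in cytoplasmic RNA (limma). Of all tested genes 14.4% were lower and 15.2% higher in nuclear, 16.3% and 15.4% in total, and 18.2% and 8.82% in cytoplasmic RNA, against 26.9% and 15.4%, 23.1% and 15.4%, and 23.1% and 3.85% of these carriers. Their reads per M library reads were 4005, 5213 and 7560.5 in DMSO nuclear RNA and 2915, 2775 and 5478 with JQ1-VHL. In total RNA they were 2275, 3350.2 and 3746 against 1573, 1739.6 and 1838. Replicate 3 was the highest nuclear library under both treatments, the ratios within the same-numbered nuclear pairs were 0.728, 0.532 and 0.725, and the total RNA groups did not overlap. Reads per M were not computed for the typical gene, so these decreases are not read as a trait of amino acid carriers.

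SLC1A7 had the largest decrease of all tested members in nuclear RNA on both scales. It encodes EAAT5, a glutamate carrier with a chloride conductance known from the retina, and lies at chr1:53087179-53142632 on the minus strand (GRCh38, GENCODE 29), where an antisense gene, AL445183.2, overlaps it. Its promoter window of 250 bases and those of SLC7A5 and SLC25A5 are shown because the 3 genes stand for a strong nuclear decrease, no call and an increase after rescaling. The sequences are RefSeq GRCh38.p14, upstream of the RefSeq start, 5′ to 3′ on the gene's strand: chr1:53142639-53142888 (minus), chr16:87869508-87869757 (minus) and chrX:119468194-119468399 (plus). The last is cut to the 206 bases before the GENCODE gene. Capitals mark CACGTG, the E-box, in SLC1A7 and SLC7A5, beginning 60 and 130 bases before the RefSeq start. In SLC25A5 they mark a reverse-strand match of TGACNNNGC, the antioxidant response element, beginning 206 bases before the RefSeq start. For SLC25A5 that start lies beyond the end of the printed stretch.
SLC1A7: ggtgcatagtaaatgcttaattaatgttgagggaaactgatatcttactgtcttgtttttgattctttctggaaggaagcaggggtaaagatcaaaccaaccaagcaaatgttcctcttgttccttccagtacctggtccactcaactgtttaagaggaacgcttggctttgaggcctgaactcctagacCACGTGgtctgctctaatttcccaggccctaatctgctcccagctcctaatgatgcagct
SLC7A5: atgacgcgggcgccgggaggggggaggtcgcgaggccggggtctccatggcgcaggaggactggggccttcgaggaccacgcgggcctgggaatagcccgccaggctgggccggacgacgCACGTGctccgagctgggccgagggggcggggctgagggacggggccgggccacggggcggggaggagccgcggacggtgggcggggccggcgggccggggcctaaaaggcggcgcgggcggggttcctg
SLC25A5: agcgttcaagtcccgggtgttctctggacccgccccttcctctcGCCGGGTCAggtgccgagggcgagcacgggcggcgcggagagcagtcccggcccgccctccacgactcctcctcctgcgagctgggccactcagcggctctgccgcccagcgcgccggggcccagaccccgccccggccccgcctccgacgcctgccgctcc

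In the nucleus SLC1A7 had rescaled values of 722, 388 and 248 with DMSO and 34.2, 32.3 and 9.96 with JQ1-VHL. Every JQ1-VHL library was below every DMSO library, and the log2 change was -4.14 ± 0.61 (SE, limma adjusted p = 0.000139), with -4.36, -3.55 and -4.50 in the same-numbered pairs. The ERCC estimate was -5.73 ± 0.95 (SE, limma adjusted p = 4.31e-06). In total RNA the values were 395, 228 and 199 against 25.1, 39.2 and 16.5, a log2 change of -3.32 ± 0.61 (SE, limma adjusted p = 0.00126). The cytoplasmic values of 114, 62 and 15.4 and 31.6, 22.7 and 20.7 overlapped, and the change of -0.94 ± 0.61 (SE, limma adjusted p = 0.262) did not pass. The difference between the nuclear and the cytoplasmic change was -3.20 ± 0.86 (SE, limma adjusted p = 0.0523), and 0.00635 was its adjusted p with the replicate block.

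SLC3A2, the CD98 heavy chain, was lower in all 3 fractions. In total RNA it had 944, 1474 and 1716 with DMSO and 328, 446 and 297 with JQ1-VHL, and the log2 change was -1.92 ± 0.31 (SE, limma adjusted p = 0.000524). No values overlapped there, and the changes in nuclear and cytoplasmic RNA were -1.64 ± 0.31 (SE, limma adjusted p = 0.00101) and -1.91 ± 0.31 (SE, limma adjusted p = 0.000370). Its light-chain partners did not follow one pattern. SLC7A5, the leucine and aromatic amino acid light chain LAT1, had 571, 1035 and 3562 with DMSO and 1234, 1037 and 8749 with JQ1-VHL in the nucleus. Replicate 3 was far above the others under both treatments, the groups overlapped, and the change of 0.80 ± 0.66 (SE, limma adjusted p = 0.364) did not pass. In total and cytoplasmic RNA SLC7A5 changed by 0.20 and 0.55 on the log2 scale, with limma adjusted p-values of 0.837 and 0.562.

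SLC7A11, the cystine and glutamate exchanger light chain, had nuclear values of 24.4, 81.4 and 120.1 with DMSO and 6.04, 8.96 and 19.9 with JQ1-VHL. The groups did not overlap, and the log2 change was -2.48 ± 1.01 (SE, limma adjusted p = 0.0704) without the replicate block and 0.0431 was the adjusted p with it. In the cytoplasm JQ1-VHL left 2 reads against 24, a ratio of read shares of 0.0792 with an exact 95% interval of 0.00907 to 0.319. Its cytoplasmic limma adjusted p was 0.0639, or 0.0372 with the block. SLC7A6, the light chain that exchanges cationic for neutral amino acids, had 75.6, 60.4 and 50.4 with DMSO and 155, 161 and 179 with JQ1-VHL in total RNA. All JQ1-VHL libraries were higher, with a log2 change of 1.41 ± 0.42 (SE, limma adjusted p = 0.0185), and the nuclear change was 1.17 ± 0.42 (SE, limma adjusted p = 0.0457) after rescaling but -0.59 on the ERCC scale.

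SLC1A5, which exchanges glutamine and other neutral amino acids, had 462, 759 and 610.4 with DMSO and 176, 186 and 164 with JQ1-VHL in total RNA, and no values overlapped. The log2 change was -1.77 ± 0.36 (SE, limma adjusted p = 0.00246) in total, -1.23 ± 0.36 (SE, limma adjusted p = 0.0172) in nuclear and -2.19 ± 0.36 (SE, limma adjusted p = 0.000447) in cytoplasmic RNA. SLC38A2, the sodium-coupled carrier SNAT2, had 1022, 2405 and 2550.0 against 456, 639 and 554 in total RNA. The DMSO values spread widely, with replicate 1 lowest, but stayed above all JQ1-VHL values, and the log2 change was -1.76 ± 0.39 (SE, limma adjusted p = 0.00391). Its nuclear and cytoplasmic changes were -1.30 ± 0.39 (SE, limma adjusted p = 0.0199) and -1.51 ± 0.39 (SE, limma adjusted p = 0.00927). SLC38A7, a lysosomal glutamine exporter, was lower in nuclear RNA, with 101, 89.2 and 66.2 against 21.1, 3.58 and 19.9 and a log2 change of -2.73 ± 0.92 (SE, limma adjusted p = 0.0334). SLC38A1, the related glutamine carrier SNAT1, was not called, with changes of 0.51, 0.75 and 0.32 in nuclear, total and cytoplasmic RNA (limma adjusted p 0.278, 0.108 and 0.529), and was named after its values were seen. SLC6A8, the creatine carrier, was higher, with 414, 532 and 537 against 1021, 1359 and 1418 in total RNA and a log2 change of 1.35 ± 0.25 (SE, limma adjusted p = 0.00128). Its nuclear and cytoplasmic changes were 1.00 ± 0.25 (SE, limma adjusted p = 0.00629) and 0.86 ± 0.25 (SE, limma adjusted p = 0.0166), and the nuclear ERCC estimate was -0.76.

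Several of these calls were lost under an alternative, and the adjusted p-values then were as follows. The nuclear call of SLC1A5 had 0.0545 to 0.0949 without DMSO replicates 2 or 3 or JQ1-VHL replicate 3, each left out in turn, and its cytoplasmic call 0.0603 on the highest interval. For SLC38A2 they were 0.0640 without DMSO replicate 2 and 0.0948 without DMSO replicate 3 in the nucleus and 0.0566 without DMSO replicate 2 in the cytoplasm. SLC38A7 had 0.161 with a pseudocount of 0.1 and 0.0537 to 0.136 without DMSO replicates 1, 2 or 3 or JQ1-VHL replicates 2 or 3, each left out in turn. The nuclear call of SLC7A6 had 0.407 on the highest interval, 0.0549 with no filter on low values, 0.0616 with a pseudocount of 0.1 and 0.0669 to 0.104 without DMSO replicates 1, 2 or 3 or JQ1-VHL replicates 1, 2 or 3, each left out in turn, and its total call 0.39 on the highest interval and 0.0534 to 0.0683 without DMSO replicates 2 or 3 or JQ1-VHL replicate 3, each left out in turn. The cytoplasmic call of SLC6A8 had 0.0552 on the highest interval, 0.0618 without DMSO replicate 3 and 0.0579 without JQ1-VHL replicate 1.

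**Figure D4:**
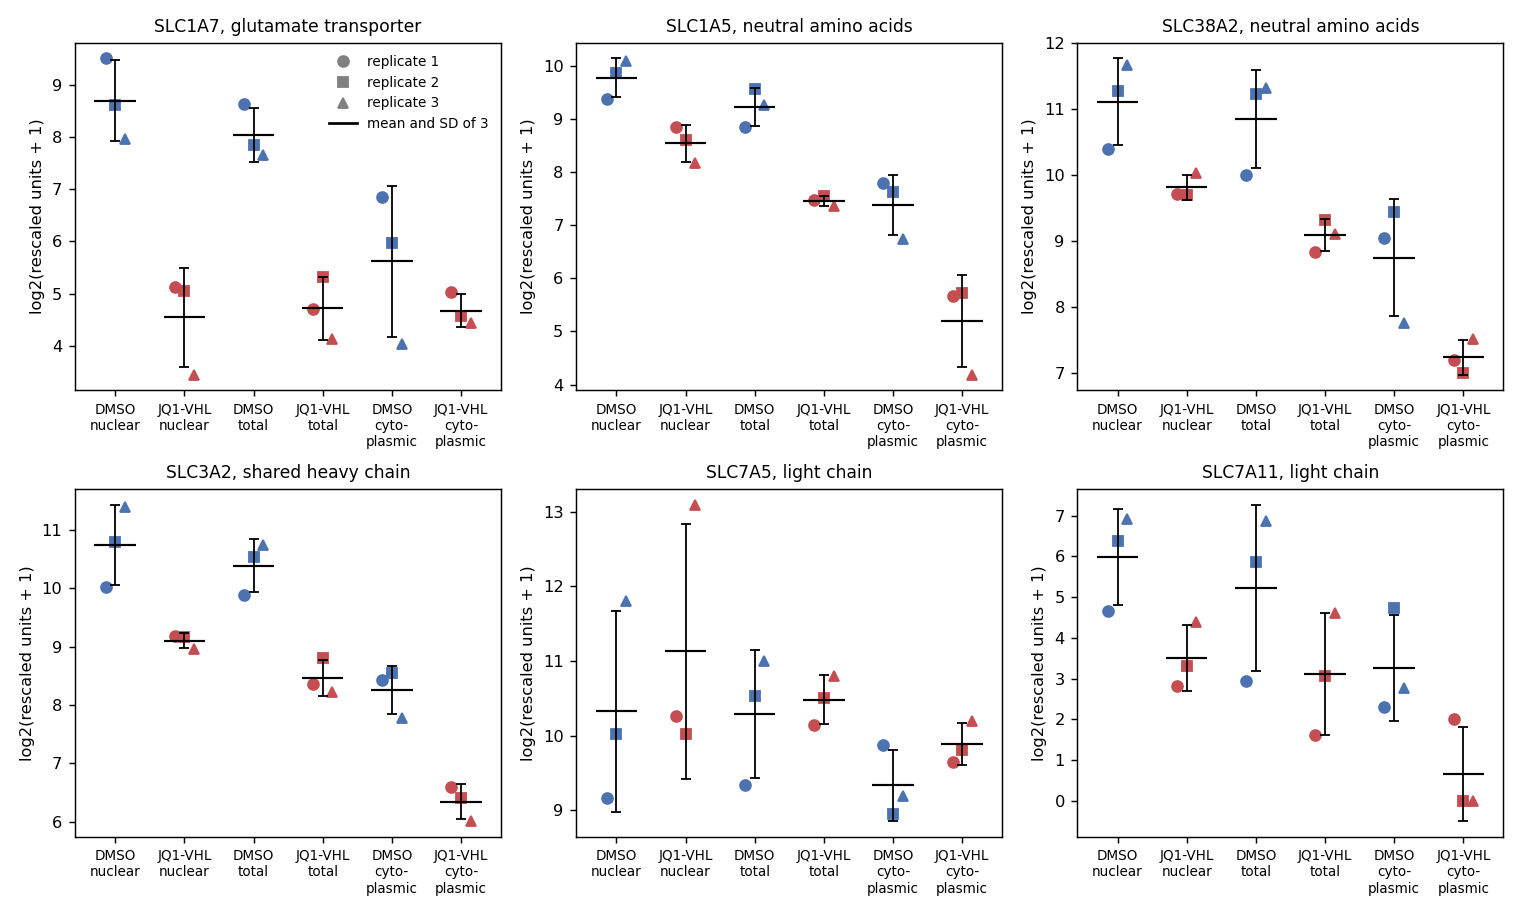
Rescaled values on the log2(value + 1) scale for SLC1A7, SLC1A5, SLC38A2, SLC3A2, SLC7A5 and SLC7A11 in each of the 18 libraries, by fraction and treatment. Points are libraries with the marker shape giving the replicate; SLC3A2 is lower in all 3 fractions with JQ1-VHL, and SLC7A5 is not.

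The mitochondrial carriers had 6 higher and 5 lower calls of 36 tested in rescaled nuclear RNA, 8 and 7 in total RNA, and 3 and 7 in cytoplasmic RNA (limma). These were 16.7% and 13.9%, 22.2% and 19.4%, and 8.33% and 19.4%, beside 15.2% and 14.4%, 15.4% and 16.3%, and 8.82% and 18.2% of all tested genes, so that the nuclear and cytoplasmic shares lay near the background. As a group they held 4133, 4287 and 4227 reads per M in DMSO total RNA and 4140.5, 4637 and 4349 with JQ1-VHL. These ranges overlapped, and the share of mitochondrial carriers among all solute carrier reads was 35.4% ± 1.30 with DMSO and 46.6% ± 1.52 with JQ1-VHL (SD, n = 3). The rise in share lay in SLC25A5, which went from 14.4% to 23.3%, and SLC25A3, which went from 5.03% to 7.96%. The other 37 mitochondrial carriers held 16% ± 1.64 with DMSO and 15.3% ± 0.325 with JQ1-VHL. These are shares of solute carrier reads, which fell. In reads per M the other 37 had 1998, 1884 and 1807 with DMSO and 1396, 1495 and 1416 with JQ1-VHL, without overlap. Members outside the mitochondrial carriers went from a mean of 7701 to 5013 reads per M. Reads per M were not computed for the typical gene, so neither fall is read as a loss particular to these carriers. After rescaling, the median log2 change in total RNA was 0.24 for the 36 tested mitochondrial carriers. It was -0.09 for the other 132 tested members and -0.09 for all tested genes.

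The 3 ADP/ATP carriers in the table did not move together. SLC25A5 (ANT2) had 4776, 5889.8 and 5861 with DMSO and 9610.1, 12926 and 11703 with JQ1-VHL in total RNA, and all JQ1-VHL libraries were higher. Its log2 changes were 1.27 ± 0.22 (SE, limma adjusted p = 0.000570) in nuclear RNA, where the ERCC estimate was -0.50, 1.05 ± 0.22 (SE, limma adjusted p = 0.00280) in total and 0.74 ± 0.22 (SE, limma adjusted p = 0.0188) in cytoplasmic RNA. SLC25A4 (ANT1, the form of heart and muscle) had 73.3, 79 and 65.5 against 17.8, 31.9 and 3.53 in total RNA. Every JQ1-VHL library was lower, and the log2 changes were -2.22 ± 0.62 (SE, limma adjusted p = 0.0134), -2.38 ± 0.62 (SE, limma adjusted p = 0.00925) and -2.34 ± 0.62 (SE, limma adjusted p = 0.0107) in nuclear, total and cytoplasmic RNA.

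SLC25A6 (ANT3) had cytoplasmic values of 399.6, 315 and 506 with DMSO and 126, 127 and 133 with JQ1-VHL. No values overlapped there, and the log2 changes were -1.63 ± 0.33 (SE, limma adjusted p = 0.00182) in cytoplasmic and -1.15 ± 0.33 (SE, limma adjusted p = 0.0137) in total RNA. The nuclear change of -0.58 ± 0.33 (SE, limma adjusted p = 0.181) did not pass. SLC25A5 has near-identical processed pseudogenes, SLC25A5-AS1 overlaps it on the other strand, and SLC25A6 lies in the pseudoautosomal region shared by X and Y, so the reads of both depend on how the authors placed multiply mapped reads, which is not given in the sources used here.

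SLC25A3, the phosphate carrier that supplies ATP synthesis, had 1643, 2044 and 2077 with DMSO and 3107, 4429 and 4187 with JQ1-VHL in total RNA. All JQ1-VHL values were higher, and the log2 changes were 1.14 ± 0.21 (SE, limma adjusted p = 0.000771), 1.01 ± 0.21 (SE, limma adjusted p = 0.00238) and 0.79 ± 0.21 (SE, limma adjusted p = 0.00938) in nuclear, total and cytoplasmic RNA, with a nuclear ERCC estimate of -0.62. SLC25A39 and SLC25A1 rose in total RNA, by 1.32 and 0.89 on the log2 scale (limma adjusted p 0.00345 and 0.00894). SLC25A16, a carrier linked to coenzyme A, rose by 1.48 (adjusted p 0.00174). SLC25A18, a glutamate carrier, rested on few reads, 13 in the DMSO and 66 in the JQ1-VHL nuclear libraries. Its nuclear rescaled values were 1.35, 1.96 and 2.28 against 27.2, 29.6 and 14.9, without overlap, and the log2 change was 3.08 ± 0.72 (SE, limma adjusted p = 0.00416).

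SLC25A15, the ornithine carrier of the urea cycle, was lower in all 3 fractions. Its nuclear values were 105, 102 and 80.3 with DMSO and 22.2, 21.5 and 14.9 with JQ1-VHL, and the changes were -2.25, -1.69 and -3.47 (limma adjusted p 0.0125, 0.0465 and 0.000800). SLC25A24, a calcium-regulated ATP-Mg/phosphate carrier, was lower as well, with total RNA values of 53.7, 56.7 and 45.2 against 6.27, 4.90 and 9.42 and changes of -1.70, -2.78 and -1.91 (adjusted p 0.0159, 0.00108 and 0.00907). In neither case did the groups overlap. Its relative SLC25A23 was higher in total RNA, by 1.06 ± 0.25 (SE, limma adjusted p = 0.00481). The nuclear and cytoplasmic changes of SLC25A23 were 0.60 and 0.59, with adjusted p-values of 0.0739 and 0.0815, or 0.0251 and 0.0267 with the replicate block.

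The third ATP-Mg/phosphate carrier named here, SLC25A25, differed between compartments after rescaling. Its nuclear rescaled values were 227, 169 and 165 with DMSO and 228, 158 and 164 with JQ1-VHL, and they overlapped closely. In the cytoplasm it had 342, 323 and 407 against 28.6, 112 and 20.7, with every JQ1-VHL library lower. The log2 changes were -0.03 ± 0.44 (SE, limma adjusted p = 0.962) in the nucleus, -1.70 ± 0.44 (SE, limma adjusted p = 0.00818) in total RNA and -3.09 ± 0.44 (SE, limma adjusted p = 0.000131) in the cytoplasm.

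The nuclear change minus the cytoplasmic change of SLC25A25 was 3.06 ± 0.62 (SE, limma adjusted p = 0.0129). It was the only member called in this test after rescaling, against 1.53% of all genes higher and 1.1% lower. The replicate block gave 2 members, edgeR 4 and DESeq2 9. On the ERCC scale the nuclear change was -1.78 and the difference 1.21 ± 1.25 (SE, limma adjusted p = 0.504), and 0 members were called by limma, edgeR or DESeq2, against 0% of all genes by limma. Before adjustment, limma p-values under 0.05 were found for 17 members lower and 0 higher on that scale. All 12 intervals of the gene were lower with JQ1-VHL in each fraction on the ERCC scale, with ratios of 0.151 to 0.523 in the nucleus and 0.0491 to 0.546 in the cytoplasm. On the highest interval in place of the sum, the difference was 1.60 after rescaling, with a limma adjusted p of 0.452. SLC25A25 lies at chr9:128068201-128109245 on the plus strand (GRCh38, GENCODE 29) and is overlapped by the antisense genes SLC25A25-AS1, NAIF1 and AL360268.1, and whether the counting used strand is not given in the sources used here.

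Calls of mitochondrial carriers that were lost had the following adjusted p-values. For SLC25A5 in the cytoplasm they were 0.0552 on the highest interval and 0.0601 to 0.0674 without DMSO replicates 1 or 2 or JQ1-VHL replicate 3, each left out in turn. SLC25A4 had 0.0903 without JQ1-VHL replicate 3 in the nucleus, 0.0662 without JQ1-VHL replicate 3 in total RNA and 0.0668 on the highest interval in the cytoplasm. SLC25A6 in total RNA had 0.0901 without DMSO replicate 1, and SLC25A1 there 0.0852 on the highest interval. The total RNA call of SLC25A18 had 0.344 on the highest interval, 0.0658 with a pseudocount of 0.1 and 0.0659 to 0.147 without DMSO replicates 2 or 3 or JQ1-VHL replicates 2 or 3, each left out in turn. SLC25A15 had 0.113 with a pseudocount of 0.1 and 0.0562 without JQ1-VHL replicate 3 in the nucleus, 0.217 with a pseudocount of 0.1 and 0.0746 to 0.191 without DMSO replicates 1, 2 or 3 or JQ1-VHL replicates 2 or 3, each left out in turn in total RNA and 0.0518 on the highest interval in the cytoplasm. For SLC25A24 they were 0.0654 without DMSO replicate 2 and 0.103 without JQ1-VHL replicate 3 in the nucleus and 0.222 on the highest interval in the cytoplasm. SLC25A25 had 0.546 on the highest interval in total RNA and 0.143 on the highest interval in the cytoplasm.

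**Figure D5:**
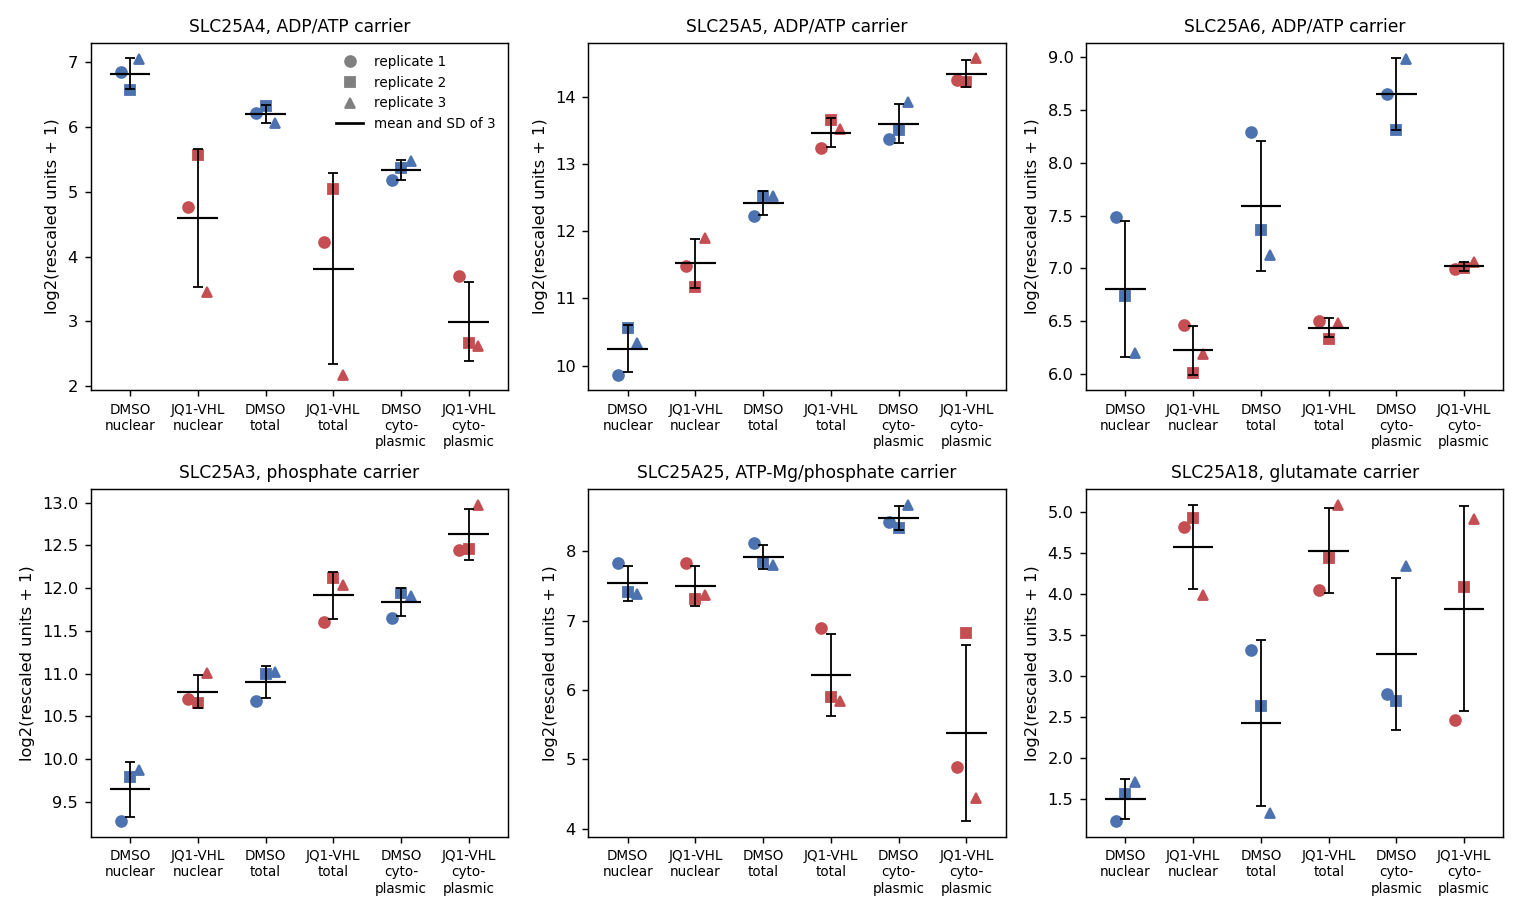
Rescaled values on the log2(value + 1) scale for the ADP/ATP carriers SLC25A4, SLC25A5 and SLC25A6, the phosphate carrier SLC25A3, and SLC25A25 and SLC25A18, in each of the 18 libraries. Points are libraries with the marker shape giving the replicate; SLC25A25 overlaps between treatments in the nucleus and not in the cytoplasm.

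Among carriers of other substrates, SLC48A1 was lower in every fraction on both scales, as no other member was. It encodes HRG1, which moves heme out of endosomes and lysosomes. Its total RNA values were 92.4, 86.5 and 79.8 with DMSO and 7.31, 11 and 2.36 with JQ1-VHL. No libraries overlapped, and the rescaled changes were -2.88 ± 0.75 (SE, limma adjusted p = 0.00884), -3.65 ± 0.75 (SE, limma adjusted p = 0.00249) and -3.44 ± 0.75 (SE, limma adjusted p = 0.00319) in nuclear, total and cytoplasmic RNA. The ERCC estimates were -4.45, -4.07 and -3.50, with limma adjusted p-values of 0.00147, 0.0148 and 0.0339. HDAC7 and RAPGEF3 overlap the gene on the other strand. Its rescaled nuclear call was lost at 0.0831 with a pseudocount of 0.1 and 0.0544 without JQ1-VHL replicate 3, and its cytoplasmic call at 0.128 on the highest interval. On the ERCC scale the nuclear, total and cytoplasmic calls were lost at 0.0520 without JQ1-VHL replicate 3; 0.0781 with a pseudocount of 0.1, 0.225 without DMSO replicate 1 and 0.214 without JQ1-VHL replicate 3; and 0.0779 in edgeR, 0.318 on the highest interval and 0.0693 to 0.324 without DMSO replicates 1 or 3 or JQ1-VHL replicates 1 or 3, each left out in turn.

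Nucleoside carriers had 3 tested members. SLC29A3, the equilibrative carrier of lysosomes and mitochondria, had 42.6, 48.5 and 47 with DMSO and 10.1, 8.96 and 12.5 with JQ1-VHL in the nucleus. The groups did not overlap, and the log2 changes were -2.04 ± 0.52 (SE, limma adjusted p = 0.00779) in the nucleus and -1.70 ± 0.52 (SE, limma adjusted p = 0.0204) in total RNA. In the cytoplasm it had 69 reads with DMSO and 3 with JQ1-VHL, a ratio of read shares of 0.0413 with an exact 95% interval of 0.00832 to 0.126. SLC29A1, the plasma membrane carrier ENT1, had 1238, 1485 and 1472 against 2633, 2895 and 2948 in total RNA, without overlap. Its change was 1.02 ± 0.38 (SE, limma adjusted p = 0.0483), close to the threshold. The calls were lost at 0.103 with a pseudocount of 0.1 for SLC29A3 in the nucleus and 0.427 on the highest interval, 0.164 with a pseudocount of 0.1 and 0.0514 to 0.0677 without DMSO replicates 1, 2 or 3 or JQ1-VHL replicates 2 or 3, each left out in turn in total RNA, and at 0.0663 on the highest interval, 0.0656 with a pseudocount of 0.1, 0.0523 with the replicate block and 0.0697 to 0.134 without DMSO replicates 1, 2 or 3 or JQ1-VHL replicates 1, 2 or 3, each left out in turn for SLC29A1.

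Carriers of the Golgi, endoplasmic reticulum and lysosome had 0 higher calls and 3, 3 and 1 lower calls of 17 tested in rescaled nuclear, total and cytoplasmic RNA. The lower shares were 17.6%, 17.6% and 5.88%, beside 14.4%, 16.3% and 18.2% of all tested genes, of which 15.2%, 15.4% and 8.82% were higher. SLC35B2, which brings the sulfate donor PAPS into the Golgi, had 56, 54.4 and 47.4 with DMSO and 17.8, 4.90 and 0 with JQ1-VHL in total RNA, without overlap and with a log2 change of -3.48 ± 0.93 (SE, limma adjusted p = 0.0103). Its nuclear and cytoplasmic changes of -2.42 and -2.45 had adjusted p-values of 0.0573 and 0.0583, or 0.0278 and 0.0272 with the replicate block. SLC35F2, which is counted in this role by its family number alone, had 25.2, 23.9 and 27.8 against 5.22, 7.35 and 0, also without overlap. It changed by -2.13, -2.83 and -3.10 in nuclear, total and cytoplasmic RNA, with limma adjusted p-values of 0.0402, 0.00999 and 0.00618. The calls were lost at 0.0753 without JQ1-VHL replicate 3 for SLC35B2, and for SLC35F2 at 0.269 with a pseudocount of 0.1 and 0.0557 to 0.165 without DMSO replicates 1, 2 or 3 or JQ1-VHL replicates 1, 2 or 3, each left out in turn in the nucleus and 0.0517 with a pseudocount of 0.1 and 0.0705 without JQ1-VHL replicate 3 in total RNA.

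Of 8 tested members of families SLC2, SLC5, SLC45 and SLC50, which carry mainly sugars, 0 were higher and 2, 2 and 1 were lower in rescaled nuclear, total and cytoplasmic RNA. Of all tested genes 14.4%, 16.3% and 18.2% were lower and 15.2%, 15.4% and 8.82% higher. The SLC5 member was SLC5A6, which carries vitamins, and it is counted here by its family. SLC2A1, the glucose carrier GLUT1, was not among them. Its total RNA values were 345, 274 and 239 with DMSO and 311, 219 and 226 with JQ1-VHL, which overlapped. The log2 changes of 0.14 ± 0.26 (SE, limma adjusted p = 0.718), -0.18 ± 0.26 (SE, limma adjusted p = 0.614) and -0.40 ± 0.26 (SE, limma adjusted p = 0.270) did not pass.

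Carriers of carboxylates and bile acids had 1 higher and 1 lower call of 8 tested in rescaled nuclear RNA, 1 and 1 in total RNA and 0 and 1 in cytoplasmic RNA, and carriers of fatty acids and steroids 1 and 0, 1 and 1, and 1 and 1 of 5. Of all tested genes 15.2% were higher and 14.4% lower in nuclear, 15.4% and 16.3% in total, and 8.82% and 18.2% in cytoplasmic RNA. With JQ1-VHL the reads per M of the first role, untested members included, were at 0.476, 0.420 and 0.475 of their DMSO mean. Those of the second were at 0.849, 0.846 and 0.643. Such a ratio was not computed for the typical gene, so a value below 1 is not read as a fall relative to other genes. SLC10A1, the sodium-dependent bile acid carrier of hepatocytes, had 24.7, 10.8 and 8.67 with DMSO and 114, 136 and 54.8 with JQ1-VHL in the nucleus. The groups did not overlap, and the log2 changes were 2.74 ± 0.70 (SE, limma adjusted p = 0.00764) in nuclear and 2.34 ± 0.70 (SE, limma adjusted p = 0.0180) in total RNA. The cytoplasmic change of 1.89 had an adjusted p of 0.0523, or 0.0315 with the replicate block. Of 3 hepatocyte markers, 1 was in the table, at 5.90 to 15.9 reads per M in DMSO and 17 to 39.1 in JQ1-VHL nuclear libraries, and its part in the result was not tested. SLC27A5, a bile acid and fatty acid coenzyme A ligase, had 26.3, 19.4 and 14.3 against 68.9, 73.5 and 75.4 in total RNA, without overlap. It changed by 1.85 ± 0.50 (SE, limma adjusted p = 0.0111) in nuclear and 1.85 ± 0.50 (SE, limma adjusted p = 0.0113) in total RNA. On the ERCC scale, where the median gene fell in nuclear RNA, the intervals of both genes were split. In nuclear RNA 3 of 4 SLC27A5 intervals were lower and 1 was higher, with ratios of 0.297 to 3.23. For SLC10A1 2 were lower and 2 higher, with ratios of 0.363 to 24.5. In total RNA each gene had 1 lower and 3 higher. ZNF446 and AC012313.9 overlap SLC27A5 on the other strand. SLC27A1 had 3 cytoplasmic reads with DMSO and 21 with JQ1-VHL, a ratio of read shares of 6.65 with an exact 95% interval of 1.99 to 34.8. SLC27A2, a fatty acid coenzyme A ligase of the same family, named after its values were seen, had log2 changes of -2.41 ± 0.83 (SE, limma adjusted p = 0.0333) in total and -2.53 ± 0.83 (SE, limma adjusted p = 0.0305) in cytoplasmic RNA, although its cytoplasmic groups overlapped, and a nuclear change of -1.59 ± 0.83 (SE, limma adjusted p = 0.148) that did not pass.

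SLC10A3, an orphan relative of the bile acid carriers, was lower. It had cytoplasmic values of 73.3, 43.7 and 63.6 with DMSO and 10.5, 17.4 and 0 with JQ1-VHL, without overlap. The log2 changes were -3.33 ± 0.81 (SE, limma adjusted p = 0.00644) in the cytoplasm and -2.49 ± 0.81 (SE, limma adjusted p = 0.0272) in total RNA, while the nuclear change of -1.28 ± 0.81 (SE, limma adjusted p = 0.235) did not pass. Calls were lost at 0.0924 with a pseudocount of 0.1 for SLC10A1 in the nucleus and 0.139 with a pseudocount of 0.1 and 0.0586 to 0.0676 without DMSO replicate 3 or JQ1-VHL replicates 1 or 3, each left out in turn in total RNA. SLC10A3 in total RNA was lost at 0.154 with a pseudocount of 0.1 and 0.0521 to 0.178 without DMSO replicates 1 or 2 or JQ1-VHL replicates 2 or 3, each left out in turn.

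Metal carriers had 2 higher and 0 lower calls of 19 tested in nuclear RNA, 0 and 2 in total RNA and 0 and 4 in the cytoplasm, after rescaling. Beside them 15.2% of all tested genes were higher and 14.4% lower in nuclear, 15.4% and 16.3% in total, and 8.82% and 18.2% in cytoplasmic RNA. SLC39A6, the zinc importer LIV-1 of luminal breast cells, had 39.7, 38 and 54.9 with DMSO and 16.7, 4.90 and 13 with JQ1-VHL in total RNA. DMSO was higher in every library, and the log2 change was -1.98 ± 0.62 (SE, limma adjusted p = 0.0225). SLC39A10, a related zinc importer, had 39 cytoplasmic reads with DMSO and 2 with JQ1-VHL, a ratio of read shares of 0.0488 with an exact 95% interval of 0.00570 to 0.188. The magnesium carrier SLC41A3 had 107, 186 and 237 against 339, 283 and 712 in the nucleus, all JQ1-VHL values higher after rescaling, with a change of 1.28 ± 0.37 (SE, limma adjusted p = 0.0153) and an ERCC estimate of -0.48. The zinc exporter SLC30A1 was not called in any fraction, with changes of -0.03, -0.28 and -0.68 (limma adjusted p 0.968, 0.630 and 0.241). The calls were lost at 0.0515 to 0.113 without DMSO replicates 1, 2 or 3 or JQ1-VHL replicate 2, each left out in turn for SLC39A6 and 0.0601 on the highest interval, 0.0915 without DMSO replicate 1 and 0.0755 without JQ1-VHL replicate 3 for SLC41A3.

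Carriers of inorganic ions, protons and phosphate had few calls, 2 higher and 1 lower of 26 tested in rescaled nuclear RNA, and 0 in total and 0 in cytoplasmic RNA by limma, where 15.2% and 14.4%, 15.4% and 16.3%, and 8.82% and 18.2% of all tested genes were higher and lower. Their median rescaled change was 0.35, 0.19 and -0.36 in nuclear, total and cytoplasmic RNA, against -0.11, -0.09 and -0.11 for all genes. The phosphate importer SLC20A1 had 575, 595 and 616 with DMSO and 591, 569 and 535 with JQ1-VHL in the nucleus, with overlap. SLC12A2, the sodium-potassium-chloride cotransporter NKCC1, had 285, 239.7 and 236 against 438, 512 and 787. All JQ1-VHL nuclear libraries of SLC12A2 were higher after rescaling, but its change of 1.15 ± 0.43 (SE, limma adjusted p = 0.0517) did not pass, and its ERCC estimate was -0.61.

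Carriers of vitamins, choline, folate and peptides had 0 higher calls in any fraction and 0, 2 and 4 lower calls of 10 tested in rescaled nuclear, total and cytoplasmic RNA, where 14.4%, 16.3% and 18.2% of all tested genes were lower and 15.2%, 15.4% and 8.82% higher. SLC19A1, the reduced folate carrier, had 21.8, 12.7 and 18.1 with DMSO and 0, 1.23 and 7.07 with JQ1-VHL in total RNA. All JQ1-VHL values were lower, and the log2 change was -2.79 ± 0.79 (SE, limma adjusted p = 0.0132). In the cytoplasm it had 21 reads with DMSO and 1 with JQ1-VHL, a ratio of read shares of 0.0453 with an exact 95% interval of 0.00109 to 0.281. The total call of SLC19A1 was lost at 0.0608 without JQ1-VHL replicate 1.

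Other transporters and regulators were read from lists of textbook members, and their counts stand beside 15.2% higher and 14.4% lower of all tested genes in rescaled nuclear, 15.4% and 16.3% in total, and 8.82% and 18.2% in cytoplasmic RNA. Carriers named outside the SLC scheme had 3 higher and 4 lower of 30 tested in each of rescaled nuclear, total and cytoplasmic RNA. FLVCR2, a carrier known for choline transport, rose by 3.21 ± 0.62 (SE, limma adjusted p = 0.00119) in the nucleus and 3.04 ± 0.62 (SE, limma adjusted p = 0.00236) in total RNA. MFSD2A, which carries lysophospholipids, fell in the nucleus, with a log2 change of -2.38 ± 0.62 (SE, limma adjusted p = 0.00870). ABC transporters had 5 higher and 0 lower of 19 in the nucleus, 4 and 1 in total RNA, and 5 and 1 in the cytoplasm, and ABCA2 was higher in each (1.25, 1.14 and 1.17 on the log2 scale), although its nuclear ERCC estimate was -0.52. On the ERCC scale 0 ABC transporters and 0 ion pumps were higher in nuclear RNA and 4 and 2 were lower, where 0.177% and 33.7% of all tested genes were. After rescaling, ion pumps had 8 higher and 1 lower of 22 in the nucleus, 7 and 2 in total RNA, and 2 and 2 in the cytoplasm. The calcium pump gene ATP2B4 was lower, by -3.24 ± 0.66 (SE, limma adjusted p = 0.00240) in total RNA. Accessory proteins had 1 higher and 1 lower of 7 tested in the nucleus, 1 and 2 in total RNA, and 0 and 3 in the cytoplasm.

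The regulators of carrier genes had 2 higher and 5 lower of 18 tested in rescaled nuclear RNA, 3 and 4 in total RNA, and 0 and 4 in the cytoplasm, beside 15.2% and 14.4%, 15.4% and 16.3%, and 8.82% and 18.2% of all tested genes. MYC, a transcription factor that acts through E-boxes, changed by -3.80 ± 0.50 (SE, limma adjusted p = 5.11e-05) in the nucleus and -3.54 ± 0.50 (SE, limma adjusted p = 0.000230) in total RNA. NFE2L2, which encodes NRF2 and acts through antioxidant response elements, was higher in the nucleus (2.18 ± 0.34 (SE, limma adjusted p = 0.000245)) and lower in the cytoplasm (-1.42 ± 0.34 (SE, limma adjusted p = 0.00562)). ATF4, the amino acid response factor, changed by 0.73 ± 0.31 (SE, limma adjusted p = 0.0826) in the nucleus and -0.36 ± 0.31 (SE, limma adjusted p = 0.378) in total RNA, and fell in the cytoplasm (-1.17 ± 0.31 (SE, limma adjusted p = 0.0101)).

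The motifs of these factors were searched on both strands in the 250 bases before the RefSeq start of 141 of the 168 tested members, and of 27305 genes in all. The E-box CACGTG was in 15 member windows (10.6%) and 6.49% of all windows. TGACNNNGC was in 22 (15.6%) and 11%, and TGATGNAA, the ATF4 composite element, in 2 (1.42%) and 3.19%. Among 18 matched members lower in rescaled nuclear RNA, 1 held the E-box, SLC1A7, and 4 held TGACNNNGC, SLC3A2, SLC7A1, SLC25A24 and SLC50A1. Among 14 higher, 0 held the E-box and 3 held TGACNNNGC, SLC25A5, SLC39A7 and SLC7A6. SLC7A1, SLC39A7 and SLC50A1 were named because the counts were small. A match is a description of the letters in the window.

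Of the 205 members, 168 reached the mean of 10 units that testing required. The other 37 held 23 to 210 reads each over all 18 libraries and are counted in the shares of reads only. They include the lactate carriers SLC16A1 with 91 reads and SLC16A3 with 39. In total RNA SLC16A1 had 21 reads with DMSO and 1 with JQ1-VHL, a ratio of read shares of 0.0498 with an exact 95% interval of 0.00120 to 0.310. Of the tested members 82 overlap another gene in GENCODE 29, so reads of both genes may mix.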

How the data were processed

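T-to-C reads were measured in 18 libraries, 3 per group. The deposited values are a signal: the authors scaled each library's T-to-C counts by a library factor, from ERCC RNA per the file name. Per the submitters' processing notes, HISAT2, HTSeq, DESeq2, Trimmomatic 0.39 and bcl2fastq were used with GRCh37/hg19 and dm3, in roles not given; the counting rule and strand are not given in the sources used here. Lines are numbered intervals of a gene whose definition is not stated, and they were summed per gene ID. All values (100%) were whole multiples of 1 read within 0.01, so whole reads were recovered (0.470 to 2.75 units each). Of 12755 IDs, 12512 matched the name table. GENCODE 29 (GRCh38) gave biotypes and positions.

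Genes with a mean of at least 10 units over the 18 libraries (10191) were tested with limma 3.58.1 in R 4.3.3 (trend, robust, 6 group means, log2(value + 1), two-sided, Benjamini-Hochberg, 0.05), on the ERCC scale and after median-of-ratios rescaling of libraries and fractions. On the ERCC scale limma treated the variance as known. A fold on this log scale understates the change of low genes. Alternatives were a pseudocount of 0.1, no filter, the replicate block, the highest interval, each library left out, and edgeR 4.0.16 and DESeq2 1.42.0 on whole reads, which called 47 and 70 members in nuclear RNA on the ERCC scale. The code was tested on simulated data. The labels give a batch number equal to the replicate number, which pairs libraries. Correlations of same-numbered DMSO and JQ1-VHL deviations were 0.27, -0.14 and 0.29 in nuclear, 0.22, 0.08 and 0.16 in total and 0.06, -0.05 and 0.02 in cytoplasmic RNA. P-values measure the spread between these libraries, which may be technical. Named genes were those with the largest log2 changes in each comparison and scale among the called ones, plus the most abundant per kilobase and a list of textbook carriers; a few items are not reported here. Members, lists and roles were chosen with earlier results of these data known. Every per-sample column was used.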

Additional observations from a re-analysis of the deposited data

Results flagged for a closer look

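The change of SLC25A25, a mitochondrial ATP-Mg/phosphate carrier, differed between nuclear and cytoplasmic RNA after rescaling. The nuclear minus the cytoplasmic log2 change was 3.06 ± 0.62 (SE, limma adjusted p = 0.0129), from changes of -0.03 and -3.09. It was called without any 1 of the 12 nuclear and cytoplasmic libraries, at 2.55 to 3.77. On the ERCC scale the difference was 1.21 with a limma adjusted p of 0.504, and on the highest interval the rescaled difference was 1.60 with an adjusted p of 0.452, so the call was lost.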

How the results depend on the processing

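Counts of members called moved by more than 1.5 times under at least 1 setting in 5 of 10 comparisons before any library was left out, and these counts follow. In total RNA on the ERCC scale the 3 calls became 13 in DESeq2, 8 on the highest interval, 9 with no filter, 1 with a pseudocount of 0.1 and 7 with the replicate block. In cytoplasmic RNA the 6 ERCC calls became 1 in edgeR and 1 on the highest interval, and the 32 rescaled calls became 11 on the highest interval. For the nuclear minus cytoplasmic change, the ERCC count of 0 became 1 on the highest interval, and the rescaled count of 1 became 9 in DESeq2, 4 in edgeR, 0 on the highest interval and 2 with the replicate block. The cause was not tested.

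With 1 library left out, nuclear calls ranged from 3 to 63 on the ERCC scale and 18 to 38 after rescaling. Total RNA calls ranged from 0 to 4 and 24 to 39, and cytoplasmic calls from 0 to 29 and 26 to 38. The nuclear minus cytoplasmic change gave 0 to 1 and 1 to 5, and nuclear against cytoplasmic RNA in DMSO 15 to 57 and 81 to 87. Of 2760 values of single named genes under the other alternatives, 2537 kept their direction and side of the threshold, 93 lost the call, 129 gained it and 1 reversed. The reversal was SLC25A25 in nuclear against cytoplasmic DMSO RNA after rescaling, from -0.94 to 1.72 on the highest interval (adjusted p 0.0428). Of 3312 values with a library left out, 3051 kept both, 207 lost the call, 54 gained it and 0 reversed.

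With the replicate block the nuclear call of SLC27A5 against the cytoplasm in DMSO was lost (adjusted p 0.0471 to 0.0565), and SLC25A4 and SLC48A1 gained it (0.0509 to 0.0379 and 0.0542 to 0.0407). Several low members had 1 to 3 cytoplasmic reads under 1 treatment, where depth leaves a wide counting interval.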
